A study of Mus musculus with 16 samples.

Results

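The thrombospondins are secreted, multidomain glycoproteins of the extracellular matrix that bind calcium. The genes described here are Thbs1, Thbs2, Thbs3 and Thbs4, taken by symbol from the deposited count table: all 4 were found among its 13474 genes. Thrombospondin-1 and thrombospondin-2 assemble as trimers, carry type 1 (properdin-like) repeats and inhibit the growth of blood vessels. Thrombospondin-1 also activates latent TGF-beta, and thrombospondin-2 is made by marrow stromal cells, whose number rises in mice that lack it. Thrombospondin-3 and thrombospondin-4 assemble as pentamers, as does the cartilage protein encoded by Comp, and lack the type 1 repeats. Thrombospondin-3 takes part in skeletal maturation in the mouse, and thrombospondin-4 is abundant in tendon and muscle and, in mouse heart, binds the stress sensor ATF6.

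RNA came from C57BL/6 mesenchymal stem/progenitor cells (MSPCs) of bone marrow at passage 5 to 10, adherent stromal cells that can form bone, cartilage and fat. The labels call them wild type (WT) or knockout (KO) for the gene of the zinc finger protein Nmp4, Zfp384. Day 3 cells were seeded at 10000 per well (25 per mm2) and stayed untreated in MesenCult medium with its supplement, which does not induce differentiation. Day 7 cells were seeded at 25000 per well (62 per mm2) in α-MEM with serum, and from 48 h also received 5 µg/mL ascorbic acid, 10 nM dexamethasone and 10 mM glycerol 2-phosphate, an osteogenic mixture. Both genotypes were sampled at both days, which gives 4 groups of 4 libraries, 1 code per cell well. Medium, density and time therefore change together between the days. By the submitters' account the 4 libraries of a group are technical replicates of 1 biological replicate. The p-values thus reflect spread from well to well, and genotype and culture cannot be told apart.

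Libraries held 31285188 to 47635039 counts in total, and RNA integrity numbers in the labels from 9.3 to 10. Zfp384 was at 80.6 to 84 CPM (counts scaled by library size) in WT and 89.7 to 93.5 CPM in the libraries labelled KO at day 3, and at 83.8 to 91.3 and 111 to 122 CPM at day 7. Its RNA was thus no lower where the label is KO, and whole-gene counts do not check a deletion, so directions between genotypes rest on the labels. All 13 marrow stromal markers were measured, with a summed level of 28085 to 29164 CPM in WT and 33684 to 36910 CPM in the libraries labelled KO at day 3, and 38586 to 41363 and 56854 to 64863 CPM at day 7. Most of that sum was collagen RNA: Col1a1 and Col1a2 held 13192 and 9454 CPM in WT at day 3 and 31947 and 28847 CPM in the day 7 group labelled KO. The list itself was split between genotypes, with 6 markers higher and 6 lower at day 3 and 7 higher and 6 lower at day 7. Cxcl12, the chemokine of marrow stroma, was at 4831 ± 98.8 CPM in WT and 848 ± 27.5 CPM with the label KO at day 3, then 5914 ± 304 and 150 ± 11 CPM at day 7 (these 3 genes were chosen after their values were seen). Thy1, a surface glycoprotein of stromal cells, was at 12.7 ± 0.40 CPM in the WT day 3 group and at 0.0877 ± 0.0352 CPM in its counterpart labelled KO. Lepr had the highest genotype difference of the list at both days. It was at 0.052 ± 0.0308 CPM in WT and 4.52 ± 0.413 CPM with the label KO at day 3, then 1.83 ± 0.304 and 10.3 ± 0.916 CPM at day 7. The authors' scaled signal implies library sizes (the authors' library sizes below) of 1.18 to 1.35 times the total counts in WT. In the libraries labelled KO these sizes were 0.745 to 0.841 times the total counts, and the sources used here do not say why. With total counts only, the median of all genes lay at -0.08 (day 3) and -0.16 (day 7) for libraries labelled KO minus WT on the log2 scale. With the authors' library sizes in place of trimmed means it lay at 0.49 and 0.55, against 0.00 and -0.03. Genotype differences are therefore given relative to a median near 0, and those smaller than that shift depend on the scaling.

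In the mm10 coordinates of the deposited table, Thbs1 lies at chr2:118111922-118127133 on the plus strand, where 22 exon entries cover 5802 bases. Thbs2 lies at chr17:14665500-14694262 on the minus strand, with 22 entries and 5922 bases. Thbs3 lies at chr3:89215187-89226837 on the plus strand, with 23 entries and 3183 bases. Thbs4 lies at chr13:92751586-92794818 on the minus strand, with 22 entries and 3202 bases. The counts cover whole genes, so nothing here is said of single exons, introns or untranslated regions. Promoter bases are shown for the members with an entry in the RefSeq promoter table (GRCm38.p6), which has none for Thbs1. They are the 250 bases before the start of transcription, 5′ to 3′ on the gene's own strand. Capitals mark matches to any of the motifs searched: the TEAD motif GGAATG, the AP-1 motif TGANTCA, the SP1 GC box GGGCGG, the MYC E-box CACGTG, the CCAAT box CCAAT and the TATA box TATAAA, on both strands. The regions are chr17:14694263-14694512 (minus strand) for Thbs2, chr3:89214930-89215179 (plus strand) for Thbs3 and chr13:92794819-92795068 (minus strand) for Thbs4.
Thbs2: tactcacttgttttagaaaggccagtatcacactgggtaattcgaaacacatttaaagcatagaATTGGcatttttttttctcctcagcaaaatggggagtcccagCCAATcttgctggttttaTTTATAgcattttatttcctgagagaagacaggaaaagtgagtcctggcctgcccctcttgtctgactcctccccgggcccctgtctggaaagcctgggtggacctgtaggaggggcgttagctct
Thbs3: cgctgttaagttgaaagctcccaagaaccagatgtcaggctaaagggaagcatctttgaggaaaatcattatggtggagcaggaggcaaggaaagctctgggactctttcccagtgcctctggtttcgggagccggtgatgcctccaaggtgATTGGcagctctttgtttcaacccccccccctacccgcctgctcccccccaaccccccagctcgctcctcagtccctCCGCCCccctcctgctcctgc
Thbs4: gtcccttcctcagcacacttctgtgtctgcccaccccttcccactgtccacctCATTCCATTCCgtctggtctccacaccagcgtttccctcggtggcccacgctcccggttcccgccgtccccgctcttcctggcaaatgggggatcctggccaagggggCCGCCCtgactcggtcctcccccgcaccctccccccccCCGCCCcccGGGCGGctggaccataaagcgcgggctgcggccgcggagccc
Counting back from the start, the Thbs4 promoter held 2 TEAD matches on the reverse strand, the first bases at -197 and -192, which overlap by 1 base, and 3 GC boxes at -89, -51 and -42. The Thbs3 promoter held a CCAAT box at -98 and a GC box at -21, both on the reverse strand. The Thbs2 promoter held CCAAT boxes at -186 and -144 and a TATA match at -126 on the reverse strand, and none of the 3 held an AP-1 or MYC E-box match. Among the same window of 32851 RefSeq promoters, 12.6% held the TEAD motif, 6.75% AP-1, 32.7% the GC box, 6.02% the E-box, 33.8% the CCAAT box and 12.4% the TATA motif. Base composition differed along with the motifs: GC content was 46.8% for Thbs2, 58.8% for Thbs3 and 70.8% for Thbs4, against a median of 52.4% (quartiles 45.2 and 61.2%). These matches describe letters, and no binding was measured.

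Thbs1 was the most abundant member in every group, and its level depended on both day and genotype. At day 3 it stood at 5128, 5239, 5173 and 5449 CPM in WT libraries 1, 1b, 3 and 4, and at 5206, 5509, 5191 and 5130 CPM in libraries 5 to 8, labelled KO. At day 7 it stood at 1918, 1885, 1919 and 2194 CPM in WT libraries 9, 10, 10b and 11, and at 736, 770, 765 and 760 CPM in libraries 13 to 16, labelled KO. At day 3 the genotypes overlapped, while every day 7 library was below every day 3 library and every day 7 library labelled KO was below every WT one. Group means were 5247 ± 142 and 5259 ± 170 CPM at day 3 and 1979 ± 144 and 758 ± 15.2 CPM at day 7 (SD, n = 4 libraries each). Between genotypes the log2 fold change at day 3 was 0.00 ± 0.04 (SE, 95% interval -0.07 to 0.08, edgeR quasi-likelihood, Benjamini-Hochberg adjusted p = 0.94). That day 3 result rests on the scaling: with the authors' library sizes it was 0.50 ± 0.06 (adjusted p = 1.53e-10), which is close to the shift of the median gene. The same difference was not called in edgeR with total counts only (-0.07 ± 0.04, adjusted p = 0.0978) or in DESeq2 (0.02 ± 0.04, adjusted p = 0.732). At day 7 Thbs1 was 2.61-fold lower in the libraries labelled KO, a log2 fold change of -1.39 ± 0.04 (adjusted p = 8.07e-23), or -0.81 ± 0.06 with the authors' library sizes.

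**Figure D1:**
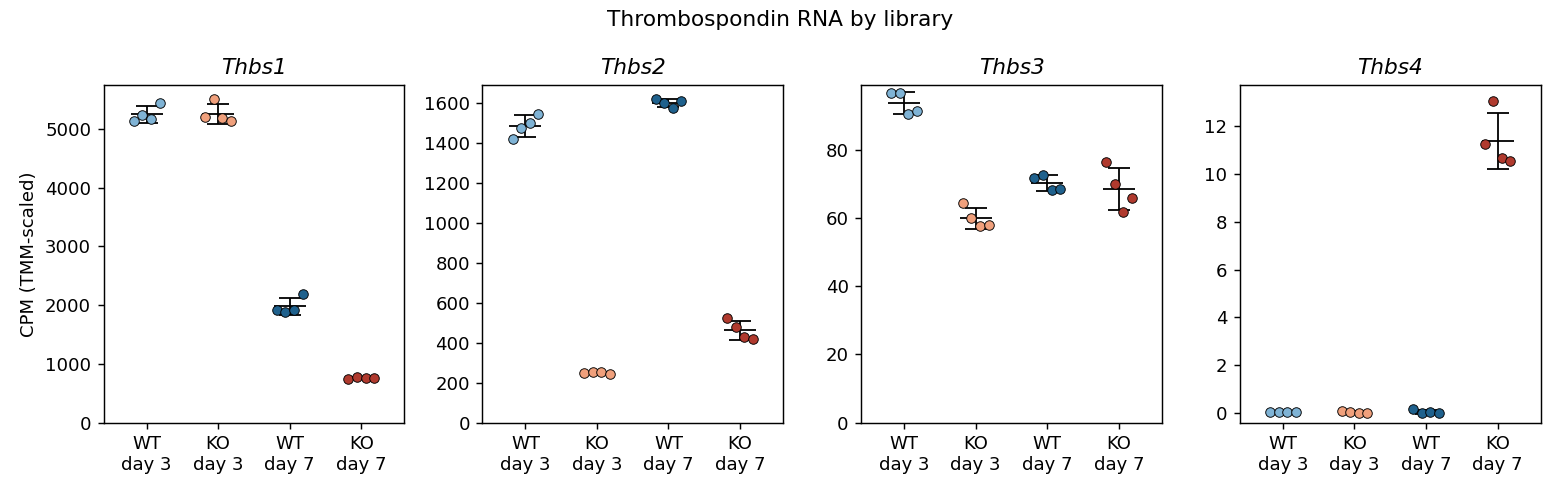
Level of each thrombospondin in every library, as CPM on linear axes that differ between the panels. Points are the 4 libraries of a group, the long line is their mean and the bars are ± SD. Thbs1 fell in both genotypes from day 3 to day 7, Thbs2 was lower in the libraries labelled KO at both days, and Thbs4 was above 1 CPM only in the day 7 group labelled KO.

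The plot of levels by library shows the other members beside it. Thbs2 separated the genotypes at both days. At day 3 it stood at 1417, 1474, 1498 and 1544 CPM in WT and 250, 251, 252 and 244 CPM in those labelled KO, in the library order given above. At day 7 it stood at 1619, 1599, 1574 and 1611 CPM in WT and 521, 479, 429 and 419 CPM in those labelled KO. The genotypes did not overlap at either day, and all 4 day 7 libraries labelled KO were above all 4 of day 3. Group means were 1484 ± 53 and 249 ± 3.93 CPM at day 3, and 1601 ± 19.7 and 462 ± 47.6 CPM at day 7. Thbs2 was 5.95-fold lower in the libraries labelled KO at day 3 (log2 fold change -2.57 ± 0.05, adjusted p = 4.08e-26) and 3.46-fold lower at day 7 (-1.79 ± 0.05, adjusted p = 5.75e-23). With the authors' library sizes these were -2.07 and -1.22, in the same direction.

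Thbs3 was a low and narrowly ranging member. At day 3 it stood at 96.6, 96.7, 90.5 and 91.5 CPM in WT and 64.3, 60.2, 57.6 and 57.9 CPM in those labelled KO. At day 7 it stood at 71.7, 72.8, 68.4 and 68.5 CPM in WT and 76.4, 70.0, 61.9 and 65.9 CPM in those labelled KO. The genotypes were apart at day 3 and overlapped at day 7, where the libraries labelled KO lay on both sides of the WT ones. Group means were 93.8 ± 3.27 and 60 ± 3.08 CPM at day 3, and 70.3 ± 2.23 and 68.5 ± 6.21 CPM at day 7. Thbs3 was 1.56-fold lower in the libraries labelled KO at day 3 (log2 fold change -0.64 ± 0.05, adjusted p = 8.09e-13), which was not past a 1.5-fold change (adjusted p = 0.0887 by glmTreat). With the authors' library sizes the day 3 value was -0.15 ± 0.05 (adjusted p = 0.0082). At day 7 the log2 fold change was -0.04 ± 0.05 (95% interval -0.13 to 0.06, adjusted p = 0.481), and this value changed sign with the authors' library sizes (0.54 ± 0.05, adjusted p = 1.56e-12).

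Thbs4 was close to absent in 3 groups and present in the fourth. Its counts were 1, 1, 3 and 1 in the WT day 3 libraries and 3, 1, 0 and 0 in those labelled KO at day 3. They were 6, 0, 1 and 0 in the WT day 7 libraries and 446, 455, 400 and 330 in those labelled KO at day 7. On the CPM scale the day 7 libraries labelled KO held 11.3, 13.1, 10.7 and 10.5, and the other 12 libraries 0 to 0.162, so the day 7 group labelled KO stood apart from all others. The summed counts of 1631 and 7 gave a day 7 ratio of 238 between libraries labelled KO and WT, with an exact 95% counting interval of 115 to 594. Of those 7 counts 6 came from library 9; without it the ratio was 1249 on 1 count (interval 224 to 49354). The fitted log2 fold change was 7.80 ± 0.27 (adjusted p = 4.47e-21), the 45th highest of 13474 genes, and 9.83 without library 9; such fitted values lean on the prior count. At day 3, with 4 counts against 6, the ratio was 0.83 (interval 0.172 to 3.5), and no difference was detectable at this depth (log2 fold change -0.24 ± 1.03, adjusted p = 0.827). In bulk cultures, fewer cells of a type and less RNA per cell cannot be told apart, for this gene and for the others.

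Read against the whole table, 2 of the 4 thrombospondins were called at day 3 (edgeR, adjusted p under 0.05), both lower in the libraries labelled KO. Of all genes 86.4% were called there, 43% higher and 43.4% lower. At day 7, 3 of 4 were called, 1 higher and 2 lower, where 86% of all genes were called, 41.7% higher and 44.3% lower. Past a 1.5-fold change there was 1 member at day 3 and 3 at day 7, against 42.5 and 44.1% of all genes. A family of 4 genes is too small for these shares to be told from the background. Thbs4 lies on chromosome 13, whose median gene was higher in the libraries labelled KO, by 0.82 at day 3 and 0.70 at day 7 on the log2 scale. Relative to that median the day 7 difference of Thbs4 was 7.10. For chromosomes 2 and 17, which carry Thbs1 and Thbs2, the medians were 0.05 and 0.08 at day 3 and -0.05 and 0.11 at day 7. Chromosome 3, which carries Thbs3, had a median of -0.16 at both days, and relative to it Thbs3 was at -0.49 at day 3 and 0.13 at day 7.

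**Figure D2:**
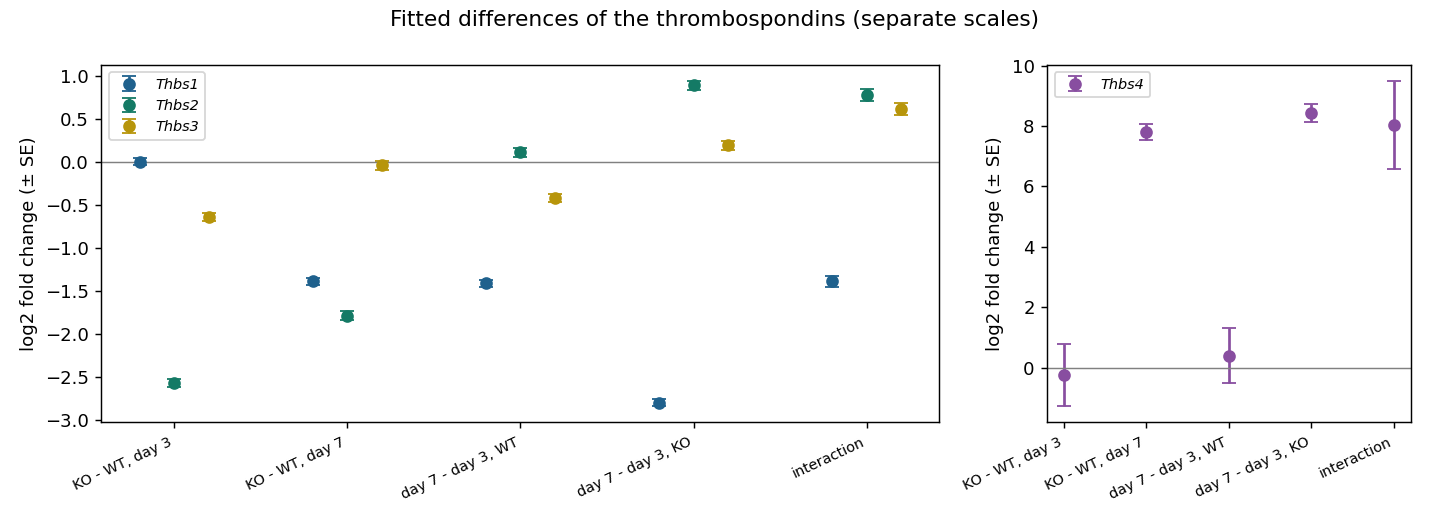
Log2 fold change (± SE) of each thrombospondin in the genotype comparisons (libraries labelled KO minus WT), the time comparisons (day 7 minus day 3) and the interaction of genotype and day. Thbs4 has its own panel because its values, up to 8.43, are on another scale; its errors are wide wherever both groups hold few counts.

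The change from day 3 to day 7, in medium, density and time together, differed between members, as the plot of fitted differences shows. Thbs1 fell in both genotypes, 2.65-fold in WT (log2 fold change -1.41 ± 0.04, adjusted p = 4.6e-22) and 6.94-fold in the libraries labelled KO (-2.80 ± 0.04, adjusted p = 6.11e-29). These were the 284th and 108th lowest values of 13474 genes. Thbs2 rose 1.85-fold in the libraries labelled KO (0.89 ± 0.05, adjusted p = 7.69e-16). In WT it moved by 0.11 ± 0.05 (adjusted p = 0.0372), a call lost with the authors' sizes (adjusted p = 0.734). That call was also lost without any 1 of WT libraries 1, 1b, 9, 10 or 11 (adjusted p 0.0569 to 0.114). Thbs3 fell in WT (-0.42 ± 0.05, adjusted p = 1.46e-08) and rose slightly in the libraries labelled KO (0.19 ± 0.05, adjusted p = 0.000958), where the libraries of the 2 days overlapped.

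For Thbs4 in WT the 7 and 6 counts of the 2 days gave a ratio of 1.34 (exact 95% counting interval 0.385 to 4.81), and the fitted change of 0.39 ± 0.91 was not called (adjusted p = 0.723). In the libraries labelled KO the 1631 and 4 counts gave a ratio of 384 (interval 150 to 1411), and the fitted 8.43 ± 0.30 was the 4th highest of all genes (adjusted p = 1.13e-20). Without library 5, which held 3 of the 4 counts, the ratio was 1134 on 1 count (interval 203 to 44831). Over the days 3 of 4 members were called in WT, 1 higher and 2 lower, beside 67.3% of all genes (32.3% higher, 34.9% lower). In the libraries labelled KO 4 of 4 were called, 3 higher and 1 lower, beside 79.9% (40.6% higher, 39.3% lower). Past 1.5-fold it was 1 member in WT, beside 13.9% of all genes, and 3 in the libraries labelled KO, beside 30.9%.

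All 4 genes had a genotype difference that itself differed between the days, 3 of them upward and 1 downward, beside 66% of all genes (32.5% upward, 33.5% downward), and 3 of them passed 1.5-fold, beside 20.7%. The interaction, the day 7 genotype difference less that of day 3, was -1.39 ± 0.06 for Thbs1 (adjusted p = 1.9e-18) and 0.78 ± 0.07 for Thbs2 (adjusted p = 4.27e-11). It was 0.61 ± 0.07 for Thbs3 (adjusted p = 1.08e-08, glmTreat adjusted p = 0.564). For Thbs4 it was 8.04 ± 1.45 (adjusted p = 1.96e-05), which rests on few counts in 3 of the 4 groups. With trimmed-mean scaling the genotype difference of Thbs1 thus appeared between the days, that of Thbs2 became smaller and that of Thbs3 lost its call. With the authors' library sizes the difference of Thbs1 was 0.50 at day 3 and -0.81 at day 7, and that of Thbs3 was called at both days with opposite signs.

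Levels of different genes can be compared per length, as CPM per kb of exon. In WT at day 3 the order was Thbs1 (904), Thbs2 (251), Thbs3 (29.5) and Thbs4 (0.0107), and it was the same in the other 3 groups. In the libraries labelled KO at day 3 the same measure was 906, 42.1, 18.9 and 0.00875. At day 7 it was 341, 270, 22.1 and 0.0148 in WT and 131, 78, 21.5 and 3.56 in the libraries labelled KO. Neighbours in this order were furthest from each other at the bottom, and Thbs1 and Thbs2 came nearest in WT at day 7, with library ranges that did not overlap. Summed over the 4 genes the length-scaled level was 1184 ± 31.8 and 967 ± 29.8 CPM per kb at day 3 (WT and labelled KO), and 633 ± 25.8 and 234 ± 8.58 at day 7.

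**Figure D3:**
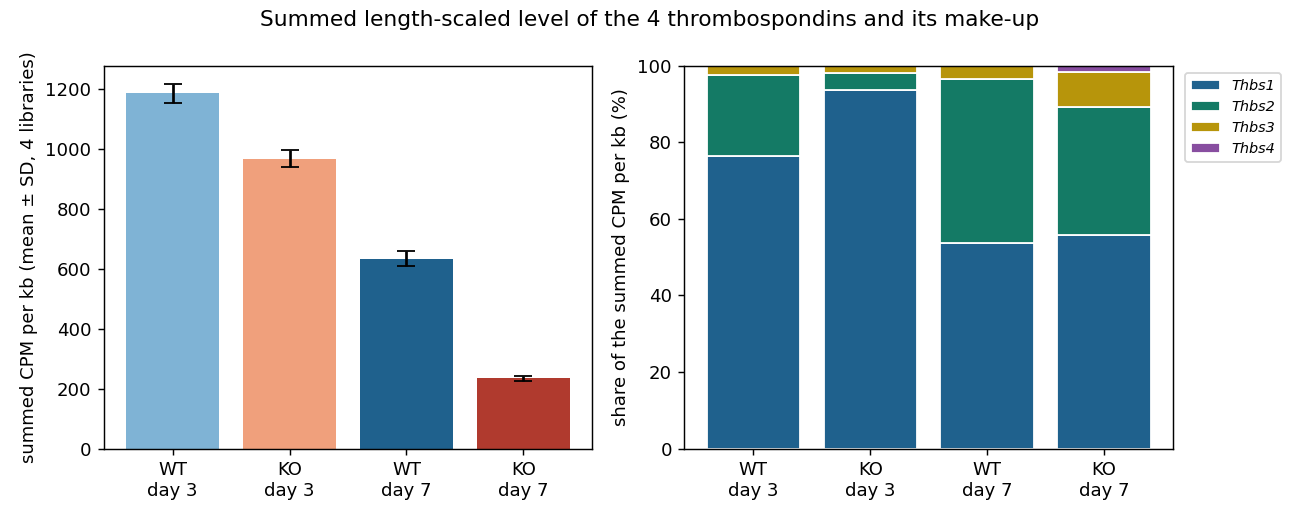
Left, CPM per kb of exon summed over the 4 thrombospondins (bars are means of 4 libraries, error bars ± SD). Right, the share of each gene in that sum in percent: the Thbs2 share was 4.35% in the day 3 group labelled KO and 42.7% in WT at day 7.

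The plot of shares shows how the make-up of this sum moved, a measure that no library scaling can alter. Thbs1 made up 76.4 ± 0.258% of it in WT at day 3 and 93.7 ± 0.182% in the libraries labelled KO, and 53.8 ± 1.71 and 55.9% at day 7. Thbs2 made up 21.1, 4.35, 42.7 and 33.3% in the same order of groups. The ratio of Thbs1 to Thbs2 per kb was 3.61 ± 0.0699 in WT and 21.5 ± 0.595 in the libraries labelled KO at day 3, and 1.26 ± 0.0873 and 1.69 ± 0.19 at day 7. The share of Thbs3 was 2.49, 1.95, 3.49 and 9.2%, highest in the day 7 group labelled KO, where the level of Thbs3 did not pass the test against WT and the sum was at its lowest. Thbs4 reached 1.52% there and was below 0.01% in every other library.

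Comp encodes the fifth thrombospondin and is not a member by symbol. It stood at 0.673 ± 0.155 and 2.77 ± 0.639 CPM at day 3 (WT and labelled KO) and at 1.64 ± 0.357 and 38.7 ± 1.78 CPM at day 7. The summed counts gave ratios between libraries labelled KO and WT of 4.2 at day 3 (378 and 112 counts, exact 95% counting interval 3.4 to 5.24) and 23.6 at day 7 (5539 and 240 counts, interval 20.8 to 27). Its interaction of 2.50 ± 0.26 was called (adjusted p = 1.74e-09). Comp was already higher in the libraries labelled KO at day 3. The Thbs4 counts there allow a ratio from 0.172 to 3.5, which overlaps the Comp interval, so the day 3 ratios of these genes cannot be told apart.

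At the cell surface thrombospondins meet many receptors, and all 18 genes of a list of these were in the table. For libraries labelled KO against WT, 8 were higher and 6 lower at day 3 (median log2 fold change -0.02, all genes 0.00), and at day 7, 8 were higher and 8 lower (median 0.01, all genes -0.03). Of all genes, 43% were called higher and 43.4% lower at day 3, and 41.7 and 44.3% at day 7, which is the background for this and the other lists. With the authors' library sizes the day 7 split was 13 higher and 4 lower. Cd36, the receptor through which the type 1 repeats act on endothelial cells, was lowest of the list at both days. Its levels were 7.19 ± 0.572 and 0.622 ± 0.182 CPM at day 3, and 2.68 ± 0.379 and 0.12 ± 0.124 CPM at day 7 (log2 fold change -3.53 ± 0.20 and -4.54 ± 0.32, adjusted p = 9.27e-16 and 1.85e-13). Vldlr, a lipoprotein receptor that binds thrombospondin-1, was highest at both days, with 3.59 ± 0.397 and 68.6 ± 2.07 CPM at day 3 and 4.88 ± 0.354 and 252 ± 15.1 CPM at day 7 (4.25 ± 0.06 and 5.69 ± 0.06).

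**Figure D4:**
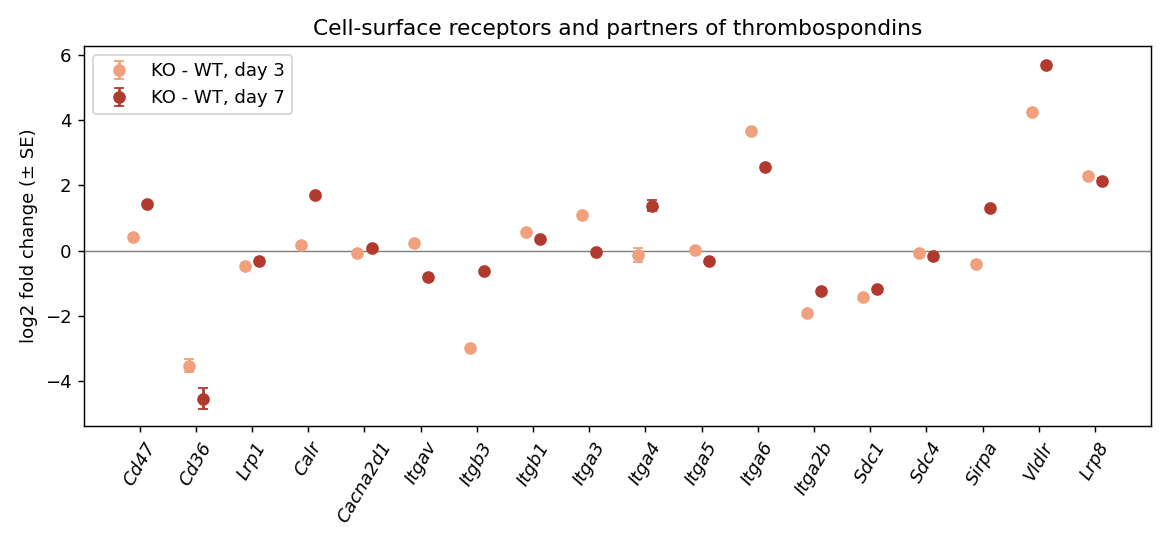
Log2 fold change (± SE), libraries labelled KO minus WT, of 18 genes for cell-surface receptors and partners of thrombospondins at day 3 and day 7. Cd36 lies lowest and Vldlr highest at both days, and Itgav changes sign between the days.

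Among the other receptors in the plot, Cd47, which binds the carboxy-terminal domain of thrombospondin-1, was at 35.1 ± 0.88 and 47.2 ± 3.98 CPM at day 3 (log2 fold change 0.42 ± 0.05) and at 33.1 ± 0.889 and 88.6 ± 3.72 CPM at day 7 (1.42 ± 0.05, adjusted p = 1.74e-21), WT first. The chains of the integrin that binds thrombospondins through their RGD sequence differed: Itgav was 0.23 ± 0.03 higher at day 3 and -0.80 ± 0.03 at day 7. Itgb3 was at -2.99 ± 0.07 and -0.64 ± 0.06 (34.3 and 4.31 CPM at day 3, 15.8 and 10.2 CPM at day 7). Lrp1, the endocytic receptor that clears thrombospondin-1 and thrombospondin-2, measured 2507 ± 81.7 and 1798 ± 168 CPM at day 3, then 2292 ± 151 and 1838 ± 161 CPM at day 7 (-0.48 ± 0.06 and -0.32 ± 0.06), differences no larger than the shift of the median with the authors' sizes. Cacna2d1, the neuronal receptor through which thrombospondins promote synapses, passed the test at neither day (-0.08 ± 0.05 and 0.07 ± 0.05, adjusted p = 0.141 and 0.215). Both values are smaller than that shift, and such differences depend on the scaling. From day 3 to day 7 WT had 2 receptors higher and 10 lower, where 32.3% of all genes were higher and 34.9% lower. The libraries labelled KO had 8 each way, where 40.6% of all genes were higher and 39.3% lower.

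Thrombospondin-1 frees TGF-beta from its latent complex. Of 8 genes for latent TGF-beta ligands and carriers, at day 3 the libraries labelled KO had 2 higher and 5 lower (median -0.22), and 3 were higher and 5 lower at day 7 (median -0.42). With the authors' sizes the split was 5 higher and 3 lower at day 3, and 3 were lower at day 7. Tgfb1, the ligand, was at 21.8 ± 0.395 and 19.5 ± 1.26 CPM at day 3 (log2 fold change -0.16 ± 0.09, adjusted p = 0.0981), and rose to 73 ± 11.8 CPM in the libraries labelled KO at day 7, from 22.9 ± 0.714 CPM in WT (1.67 ± 0.08, adjusted p = 8.96e-14). Lrrc32, which holds latent TGF-beta at the cell surface, was lowest at day 3 (247 ± 4.78 and 18.7 ± 0.81 CPM, -3.72 ± 0.04). Ltbp2, a protein of the latent TGF-beta binding family, was lowest at day 7 (314 ± 5.05 and 30.9 ± 2.99 CPM, -3.34 ± 0.05).

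Of 11 measured genes of a list of TGF-beta responses, 6 were higher and 4 lower at day 3 (median 0.43), and 4 were higher and 6 lower at day 7 (median -0.48). From day 3 to day 7 in the libraries labelled KO, 3 were higher and 8 lower (median -1.20, all genes 0.01), beside 40.6 and 39.3% of all genes. Tgfbi, a matrix protein induced by TGF-beta, was highest of the list at both days, with 4.63 ± 0.644 and 84.9 ± 1.51 CPM at day 3 (4.19 ± 0.06) and 8.64 ± 0.633 and 55.3 ± 2.56 CPM at day 7 (2.68 ± 0.06). Ctgf, a matricellular growth factor modulator, was lowest of the list at day 7, with 571 ± 11.8 and 49.2 ± 1.91 CPM (-3.53 ± 0.05).

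The 8 listed proteases, which act on thrombospondins or the matrix around them, all passed the test at both days, with 4 higher and 4 lower each time, beside 86.4 and 86% of all genes called. Adamts1, which cleaves thrombospondin-1 and thrombospondin-2, was 0.55 ± 0.04 higher at day 3 (116 ± 2.17 and 170 ± 4.81 CPM) and 0.16 ± 0.04 at day 7. Mmp2, a gelatinase cleared by Lrp1 together with thrombospondin-2, was 0.26 ± 0.03 and 0.53 ± 0.03 higher, reaching 1588 ± 61.9 CPM. Mmp9, the other gelatinase, was lowest at day 3 (11.5 ± 0.764 and 0.89 ± 0.226 CPM, -3.68 ± 0.16), and Plau, the urokinase, at day 7 (117 ± 3.49 and 24.1 ± 1.31 CPM, -2.28 ± 0.04). Furin, a proprotein convertase, was highest at day 3 (0.86 ± 0.04), and Mmp14, a membrane-bound matrix protease, at day 7 (1026 ± 31.7 and 1870 ± 126 CPM, 0.87 ± 0.04).

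Other matricellular genes, whose products sit in the matrix and signal to cells, had 16 of 22 listed symbols in the table. Of these 7 were higher and 9 lower at day 3, and 8 higher and 6 lower at day 7. Over the days WT had 10 higher and 4 lower (median 1.13, all genes -0.01), where 32.3% of all genes were higher and 34.9% lower. The libraries labelled KO had 12 higher and 3 lower (median 1.36, all genes 0.01), where 40.6% were higher and 39.3% lower. Sparcl1, a relative of osteonectin, was lowest at both days (22.6 ± 1.19 and 0.142 ± 0.0779 CPM at day 3, 213 ± 4.62 and 0.973 ± 0.36 CPM at day 7). Postn, or periostin, was highest at day 3 (329 ± 10.5 and 2070 ± 41.1 CPM, 2.65 ± 0.04), and Comp at day 7. Genes outside the family with a thrombospondin type 1 repeat had 8 of 21 higher and 10 lower at day 3, and 11 higher and 8 lower at day 7. Adamtsl1, a secreted protein like the ADAMTS proteases but without their catalytic part, was highest at day 3 (1.11 ± 0.21 and 8.11 ± 0.651 CPM). Spon1, or F-spondin, was highest at day 7 (0.0272 ± 0.0383 and 5.96 ± 0.699 CPM). Thsd4, which takes part in fibrillin microfibrils, was lowest at day 3 (30.8 ± 0.119 and 7.17 ± 0.429 CPM), and Rspo2, an activator of Wnt signalling, at day 7 (74 ± 2.4 and 10.8 ± 0.768 CPM).

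Matrix proteins that bind thrombospondins had 14 of 16 symbols in the table, with 6 higher and 6 lower at day 3 and 8 higher and 5 lower at day 7 (median 0.62). Col2a1, the cartilage collagen, was at 4634 ± 251 and 35.4 ± 5.39 CPM at day 3 (-7.03 ± 0.08) and 808 ± 27 and 16.1 ± 0.945 CPM at day 7. Acan, the aggregating proteoglycan of cartilage, had 0 counts in all WT libraries but stood at 2.07 ± 0.206 (day 3) and 5.69 ± 0.496 CPM (day 7) with the label KO. Of 14 genes of the ATF6 branch of the unfolded protein response, 10 were higher and 2 lower at day 3 (median 0.21, and 1 lower without library 7 of the group labelled KO) and all 14 were higher at day 7 (median 1.77, all genes -0.03). From day 3 to day 7 all 14 also rose in the libraries labelled KO (median 1.42), where 40.6% of all genes were higher and 39.3% lower. In WT 4 rose and 7 fell, where 32.3% of all genes were higher and 34.9% lower. Atf6, the sensor, was at 64.9 ± 1.05 and 142 ± 6.66 CPM at day 3 and 66.9 ± 1.87 and 220 ± 9.97 CPM at day 7 (1.13 ± 0.04 and 1.72 ± 0.04). Hspa5, the chaperone BiP, reached 6912 ± 381 CPM at day 7, from 807 ± 38.6 CPM in WT (3.10 ± 0.04). Creb3l1, a related sensor of bone cells, was at -0.16 ± 0.04 at day 3, less than the shift of the median with the authors' sizes, and at 0.76 ± 0.04 at day 7.

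Cells other than stromal cells also make thrombospondins, so their markers were set beside the members. Of 7 tendon cell markers 6 were in the table, and their summed level was 239 to 248 and 174 to 203 CPM at day 3 (WT and labelled KO) and 328 to 355 and 1692 to 1864 CPM at day 7. Scx, the tendon transcription factor, was at 3.75 ± 0.619 and 34.8 ± 2.31 CPM at day 3 and 2.04 ± 0.125 and 31.4 ± 2.14 CPM at day 7, higher at both days, while Mkx, another, was lower at both (-1.12 ± 0.13 and -1.90 ± 0.16). The sum was highest in the group where Thbs4 was present, but 1 gene carried it: Fmod, or fibromodulin, a matrix proteoglycan not confined to tendon and chosen after its values were seen, was at 282 ± 8.87 CPM in WT and 1673 ± 68.5 CPM with the label KO at day 7. With the label KO, 4 of the 6 markers were called above WT at day 7 and 1 below (median log2 fold change 0.93). At day 3 the calls were 2 above and 3 below (median -0.28). From day 3 to day 7 in the libraries labelled KO, 3 of the 6 markers were higher and 3 lower. Of all genes, 40.6% rose and 39.3% fell over those days. The part of tendon-like cells in the Thbs4 result was not tested. Of 10 macrophage markers 9 were in the table, and all 9 were lower in the libraries labelled KO at both days: the sum was 122 to 138 and 31 to 38.2 CPM at day 3, and 138 to 157 and 15.2 to 17.8 CPM at day 7. Thbs1 at day 3 was at 5130 to 5509 CPM in the libraries labelled KO beside 5128 to 5449 CPM in WT. With the authors' library sizes its day 3 log2 fold change was 0.50 ± 0.06. The part of macrophages in the values of Thbs1, at either day, and of Thbs2 was not tested.

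Of 9 megakaryocyte and platelet markers only Itga2b and Gp1bb were in the table, and the others were not analysed here. Itga2b and Gp1bb summed to 17.9 to 20, 10.6 to 11.6, 17.3 to 20.4 and 13.7 to 16.2 CPM (WT and labelled KO at day 3, then at day 7). They went opposite ways: Itga2b was lower in the libraries labelled KO at both days (log2 fold change -1.91 ± 0.07 and -1.25 ± 0.07). Gp1bb was higher at both (0.97 ± 0.10 and 1.32 ± 0.10). Of 8 endothelial markers only Kdr was in the table, at 0.135 to 0.346, 1.82 to 2.45, 0.439 to 0.846 and 12.8 to 13.9 CPM. The 6 measured chondrocyte markers, of 8 listed, summed to 4453 to 5010 and 52.4 to 69.1 CPM at day 3. At day 7 they summed to 812 to 878 and 92 to 104 CPM. Col2a1 made up most of this sum except in the day 7 group labelled KO, where it was at 16.1 ± 0.945 CPM. The 7 smooth muscle markers summed to 4806 to 5110 and 5397 to 5604 CPM at day 3, and to 3249 to 3534 and 1060 to 1191 CPM at day 7, where 6 were lower and 1 higher in the libraries labelled KO. Acta2, smooth muscle actin, made up most of this sum (chosen after its values were seen). It was at 4327 ± 111 and 4187 ± 70.6 CPM at day 3 (WT and labelled KO), and at 2796 ± 106 and 892 ± 43.3 CPM at day 7. The 1 marker higher at day 7 was Actg2 (34.9 ± 3.04 and 87.5 ± 5.22 CPM), and the lowest was Des (1.81 ± 0.161 and 0.153 ± 0.0742 CPM). Over the days in WT 4 of the 7 smooth muscle markers rose and 3 fell, beside 32.3 and 34.9% of all genes. In the libraries labelled KO none rose and 6 fell, beside 40.6 and 39.3% of all genes. The part of each in the values of the thrombospondins was not tested.

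The genes nearest to each member in the table did not all move with it. Smoc2, a matricellular gene 260710 bases from Thbs2, was at -2.16 ± 0.05 at day 3 but 0.54 ± 0.04 at day 7, while Wdr27, 124410 bases away on the other side, was called at neither day. Mtx1, which lies 852 bases from Thbs3 on the opposite strand and encodes a mitochondrial import protein, was at -0.25 ± 0.04 and -0.69 ± 0.05, so at day 7 it differed between genotypes where Thbs3 did not pass the test. Muc1, on the other side, was at -0.87 ± 0.20 and -0.67 ± 0.21. Around Thbs4, Serinc5 was 0.94 ± 0.05 and 0.87 ± 0.04 higher and Mtx3 0.72 ± 0.05 and 0.69 ± 0.05, at both days near the chromosome 13 median and far below the Thbs4 difference of day 7. Gm13986, 720 bases from Thbs1 on the opposite strand, fell from 0.577 ± 0.145 to 0.21 ± 0.10 CPM in WT and from 0.926 ± 0.191 to 0.0469 ± 0.0381 CPM in the libraries labelled KO. Fsip1, on the other side of Thbs1, was at 0.79 ± 0.25 and 0.84 ± 0.25 between the genotypes at day 3 and day 7. In the GENCODE annotation of GRCm38 a long noncoding gene, Gm29233, lies on the opposite strand within Thbs1, and Mtx1 (chr3:89209081-89227088 there) overlaps Thbs3 on the opposite strand. A strand setting for the counting was not given in the sources used here; reads of such partners may not be told apart.

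For each member the 3 genes with the most similar profile over the 16 libraries were found among 10040 genes with at least 10 CPM in their highest group, as the root mean square difference of centred log2(CPM + 0.5). For Thbs1 they were Cdc6 (0.16), E2f8 (0.17) and Exo1 (0.17), genes of DNA replication, the cell cycle and DNA repair. Cdc6 stood at 37.2, 38, 15.6 and 6.12 CPM in WT and labelled KO at day 3, then at day 7. In that order E2f8 stood at 28.4, 34.2, 13 and 5.03 CPM, and Exo1 at 34.2, 40.4, 14.6 and 6.2 CPM. Unlike Thbs1, E2f8 and Exo1 were called higher with the label KO at day 3 (log2 fold change 0.27 ± 0.05 and 0.24 ± 0.06). For Thbs2 they were Il12rb1 (0.11), a cytokine receptor chain, Abhd4 (0.15), a lipid hydrolase, and Nudt14 (0.16), a hydrolase of UDP-glucose. For Thbs3 they were Hdac5 (0.05), a histone deacetylase, Sorcs2 (0.07), a sorting receptor, and Galnt2 (0.08), a glycosyltransferase. For Thbs4 they were Bmp3 (0.29), a bone morphogenetic protein family member, Scube1 (0.35), a secreted EGF-domain protein, and Dlg2 (0.38), a scaffold protein. Bmp3 stood at 0, 0.116, 0.0553 and 16.9 CPM in the same order. All 3 genes near Thbs4 reached 10 CPM only in the day 7 group labelled KO. Between members the nearest pair, Thbs2 and Thbs3, was 0.97 apart, and Thbs1 and Thbs4, the furthest, 3.00. The listed genes were picked as the closest of 10040, so their distances cannot be set against those of the member pairs.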

How the data were processed

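RNA was measured in 16 libraries, 4 per group of genotype and day; the groups come from the titles. The poly(A)-selected, strand-specific libraries were read as 2 × 100 nt pairs on an Illumina instrument, per the labels' protocols. The authors deposited raw counts, whole numbers of reads per gene without normalisation. Columns named CPM in the file headers are a scaled signal: the authors divided each library by 1 constant, and their sums differ between libraries. Only the library sizes they imply were used, as an alternative. The deposited gene length, an other unit (bases), gave CPM per kb. Per the submitters' processing notes the build was mm10 and the tools included STAR 2.4.2a, edgeR and featureCounts, with no roles stated. The sources used here do not give the annotation behind the counts.

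The model, in edgeR 4.0.16 under R 4.3.3, was fitted to the counts (robust quasi-likelihood, trimmed mean of M values factors 0.949 to 1.05, 4 group means, 12 residual degrees of freedom) over all 13474 genes, and p-values were Benjamini-Hochberg adjusted over them. The low-count filter removed 0 genes; the table's lowest summed count is 105. The common dispersion was 0.00181 (coefficient of variation 4.25%), so small differences pass the test. glmTreat tested against a 1.5-fold change. Log2 fold changes carry an approximate SE. Counting intervals cover counting error only. DESeq2 1.42.0, other scalings, filters and left-out libraries were alternatives.

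Libraries within groups differed by more than sampling noise, with a chi-square per degree of freedom of 2.33 to 17.88, also those sharing a number (1 and 1b, 10 and 10b), and all entered singly. The sources used here do not say what the b means. The table holds 22 symbols turned into dates and 1 repeated symbol, none of them named here. The members and gene lists were chosen with earlier results of these data known. The text names the 4 members, anchor genes, the nearest table gene on each side of a member, the 3 nearest profiles, and of each list the called genes with the highest and lowest genotype difference at each day among those reaching 1 CPM in either group. Some genes that the rule names are left out here.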

Additional observations from a re-analysis of the deposited data

Results flagged for a closer look

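Within groups of 4, a library stood apart by Dixon's test (critical value 0.829) in 6 of 68 groups of 17 genes; chance gives about 1 in 20. Thbs1 was at 2194 CPM in WT day 7 library 11, where the other 3 were at 1885 to 1919 CPM. Thbs4 was at 0.061 CPM in WT day 3 library 3 (others 0.0237 to 0.0271) and at 0.162 CPM in WT day 7 library 9 (others 0 to 0.0274), on 3 and 6 counts. Atf6 was at 66.4 CPM in WT day 3 library 4 (others 64.2 to 64.4) and at 64.1 CPM in WT day 7 library 10 (others 67.6 to 68.3). Mmp2 was at 791 CPM in WT day 3 library 1 (others 826 to 828).

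The genotype difference at day 7 less that at day 3 was tested as an interaction, called for 14 of the 17 genes followed, beside 66% of all genes. It was -1.39 for Thbs1, 0.78 for Thbs2, 0.61 for Thbs3 and 8.04 for Thbs4. It was 2.50 for Comp, 2.35 for Itgb3, 1.83 for Tgfb1, 1.00 for Cd47, 0.59 for Atf6, 0.26 for Mmp2 and 0.25 for Zfp384. It was -1.02 for Itgav, -0.44 for Mtx1 and -0.39 for Adamts1.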

How the results depend on the processing

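Of 20 member comparisons, 17 kept their side of the threshold under the alternatives run, and the called ones among them their direction. With the authors' library sizes the day 3 genotype difference of Thbs1 was 0.50, the day 7 difference of Thbs3 was 0.54 (called and reversed) and the WT time change of Thbs2 was 0.02 (not called); those sizes moved the median gene by about as much between genotypes. With total counts the day 7 difference of Thbs3 was -0.16 (called). With libraries sharing a number summed, the WT time change of Thbs2 was 0.10 (not called), and leaving out 1 library it ran from 0.09 to 0.13, not called in 5 of 16; it was 0.11 without WT day 3 library 1b or WT day 7 library 9, 10 or 11. The cause was not tested. With the authors' sizes the called genes that were higher in the libraries labelled KO went from 49.7 to 72.9% at day 3 and from 48.5 to 75.4% at day 7, and those higher over time in WT from 48.1 to 34.5%. Counts of called genes over the whole table stayed within 1.5 times. Of the gene list counts, 11 moved past 1.5 times under these settings (among them receptors higher over time in WT, from 2 to 1, and TGF-beta responses, from 4 to 2, with the authors' sizes) and 437 did not. Thbs4 could not be fitted at day 3 or over time in WT with only the groups compared, where its few counts fail the filter; depth limits this gene in 3 groups. No paired analysis was possible because the groups share no replicate numbers.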
